A study of Mus musculus with 6 samples.

Results

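Histone cluster genes are the protein-coding genes whose symbols begin with Hist1h, Hist2h, Hist3h or Hist4h. They were taken by that rule from the gene table of an RNA sequencing study of mouse optic nerve. The rule gave 67 of 52636 genes, or of 22027 protein-coding genes: 6 linker histones (H1), 18 H2A, 18 H2B, 12 H3 and 13 H4 genes. Of the 67, 54 belong to the Hist1 cluster on chromosome 13, 10 to Hist2 on chromosome 3, 2 to Hist3 on chromosome 11 and 1 to Hist4 on chromosome 6. A further 3 symbols with these prefixes are not protein-coding and were left out.

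Total RNA of optic nerve, depleted of ribosomal RNA, was sequenced in 6 libraries, 3 of a group named mCherry and 3 of a group named hND6. The labels give the treatment of the hND6 group as mutant human ND6T14484C, an altered subunit gene of complex I of the respiratory chain; mCherry is a red fluorescent protein. Beside both groups stands the same text, which describes a lentivirus that carries the mutant gene into the eye, so what the mCherry group received is not stated. The strain, the age and whether each library is a separate animal are also not stated, so p-values cover only the spread from library to library, which may be technical. The tissue is labelled optic nerve, and the summed level of 6 oligodendrocyte markers ran from 4478 to 6723 FPKM (fragments scaled by exon length and library size) in mCherry and from 6394 to 7424 in hND6. Reads assigned to genes ran from 20253637 to 34758873 per library.

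Histone cluster genes supply the bulk of the histones that package newly copied DNA. H2A, H2B, H3 and H4 form the core on which DNA is wound, and H1 binds the linker between cores. Most of these genes are switched on while DNA is replicated, have no introns, and make an mRNA that ends just after a stem-loop in place of a poly(A) tail. That stem-loop is bound by the protein Slbp and is needed for cutting the RNA. In cells that no longer divide, which make up most of an adult nerve, some of these genes also give polyadenylated RNA that runs on past the stem-loop. A library made by removing ribosomal RNA holds RNA with and without such a tail.

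The stem-loop shows what these transcripts share and where they end, so its forms are given here as found in the GENCODE M21 transcript that matches each gene of the table. The histone stem-loop consensus was present in the annotated transcript of 45 of the 67 members, in 8 forms. In the others, a stem-loop past the annotated end would not be seen. Capitals mark the paired stem and lower case the loop. The forms carried by more than 1 member, and that of Hist2h2ac, were as follows.
H1, H2A, H2B and H3, 25 members: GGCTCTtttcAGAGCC
H1, H2B and H3, 6 members: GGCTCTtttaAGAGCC
Hist2h2ac: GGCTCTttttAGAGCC
H4, 7 members including Hist1h4d and Hist1h4h: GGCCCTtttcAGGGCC
Hist1h4i and Hist2h4: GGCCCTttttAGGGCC
Hist1h4b and Hist1h4j: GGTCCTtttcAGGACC
Among the 45, the stem of the first 3 forms occurred in no H4 gene, and the stems of the last 3 occurred in no other class.

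The region before the start site also set H4 apart from the other classes. All 67 members matched a RefSeq gene, and 62 had a promoter window of 300 bases (250 before to 50 after the start, GRCm38.p6). The letters TATAAA, on either strand, stood in 35 of 62 windows, against 13.6% of 32851 windows of all genes. CCAAT stood in all 50 windows outside H4 and in 3 of 12 H4 windows, against 37.4% of all. GGTCC, an element described in H4 promoters, stood in 11 of 12 H4 windows, against 45.5% of all. ATTTGCAT, the octamer known from H2B promoters, stood in 7 of 18 H2A and 6 of 16 H2B windows. It stood in none of the other classes and in 1.74% of all windows. Some H2A and H2B genes lie head to head on opposite strands, so their windows overlap. Examples are Hist1h2aa with Hist1h2ba, Hist1h2ae with Hist1h2bg, and Hist1h2ah with Hist1h2bk. The same letters can thus count for both classes, and the windows are not all separate. Each motif was counted on both strands and on its own, whether or not its letters overlapped another, and a match describes letters, not a bound factor.

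The windows of the 3 members with the smallest unadjusted p are printed from RefSeq, 5′ to 3′ on the gene's own strand, with these motifs in capitals.
Hist1h1e, minus strand, chr13:23622509-23622808: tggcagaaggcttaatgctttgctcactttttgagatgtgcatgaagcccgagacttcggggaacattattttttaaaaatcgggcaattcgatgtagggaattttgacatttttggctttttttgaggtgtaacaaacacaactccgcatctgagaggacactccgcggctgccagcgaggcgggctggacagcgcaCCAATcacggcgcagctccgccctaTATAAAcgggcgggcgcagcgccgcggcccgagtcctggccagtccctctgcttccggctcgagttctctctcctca
Hist1h4d, plus strand, chr13:23581318-23581617: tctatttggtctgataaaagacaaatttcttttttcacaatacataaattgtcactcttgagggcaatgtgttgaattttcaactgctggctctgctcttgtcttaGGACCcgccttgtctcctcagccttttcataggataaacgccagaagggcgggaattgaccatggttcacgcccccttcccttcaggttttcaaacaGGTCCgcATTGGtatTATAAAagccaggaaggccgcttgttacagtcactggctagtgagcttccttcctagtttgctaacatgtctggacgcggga
Hist2h2ac, minus strand, chr3:96220831-96221130: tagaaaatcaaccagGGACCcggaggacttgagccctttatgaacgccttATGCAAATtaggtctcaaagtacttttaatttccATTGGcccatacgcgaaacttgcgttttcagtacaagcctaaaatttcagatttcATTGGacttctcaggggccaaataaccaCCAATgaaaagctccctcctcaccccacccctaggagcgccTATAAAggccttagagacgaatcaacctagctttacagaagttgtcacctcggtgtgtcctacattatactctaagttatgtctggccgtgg
Each of the 3 windows held a TATAAA and at least 1 CCAAT, and Hist1h4d held GGTCC in 2 places. Hist2h2ac held the octamer on its opposite strand. Its window also reaches the start of the H2B gene Hist2h2be on that strand.

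The comparison asked how these genes differ between the hND6 and mCherry libraries. Most stood somewhat higher in hND6, but none passed the test. Of the 67 members, 52 averaged at least 0.5 FPKM and were tested with limma over 16157 genes. Of the 52, 42 stood higher in hND6 and 10 lower (38 and 31 higher on the TPM scale and with the gene span trend removed), with a median log2 fold change of 0.37 on the log2(FPKM + 0.5) scale, against a median of -0.01 over all tested genes. Among the 711 other tested protein-coding genes that span under 3 kb, as most histone genes do, the median was 0.34 and 86.1% stood higher in hND6. The histone genes' median thus lay close to that of other short genes. After removal of the gene span trend these medians were 0.08 and 0.11.

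No histone cluster gene reached an adjusted p of 0.05 in limma, where 7 of 16157 tested genes did (0.0433%). The smallest adjusted p of a member was 0.178. At an unadjusted p under 0.05, 8 members were higher and 0 lower (15.4% of the 52 higher), against 9.11% of all tested genes higher and 6.05% lower, and 35.9% of the other short genes higher. With limma's voom on whole reads recovered from the FPKM values, 0 members were called. In that fit 9 of the 52 had an unadjusted p under 0.05, against 2462 of all 16157 tested genes. The 3 mCherry and 3 hND6 values did not overlap in 6 members, all higher in hND6 (11.5% of the 52), and in 0 lower, against 12.6% of all tested genes higher, 10.2% lower, and 37.3% of the other short genes higher. The 6 are Hist1h1c, Hist1h1e, Hist1h2bc, Hist1h4d, Hist2h2ac and Hist4h4. Their share is near that of all genes and below that of short genes. Of the tested members 2, Hist1h3g and Hist2h2aa2, passed the filter only through 1 group.

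**Figure D1:**
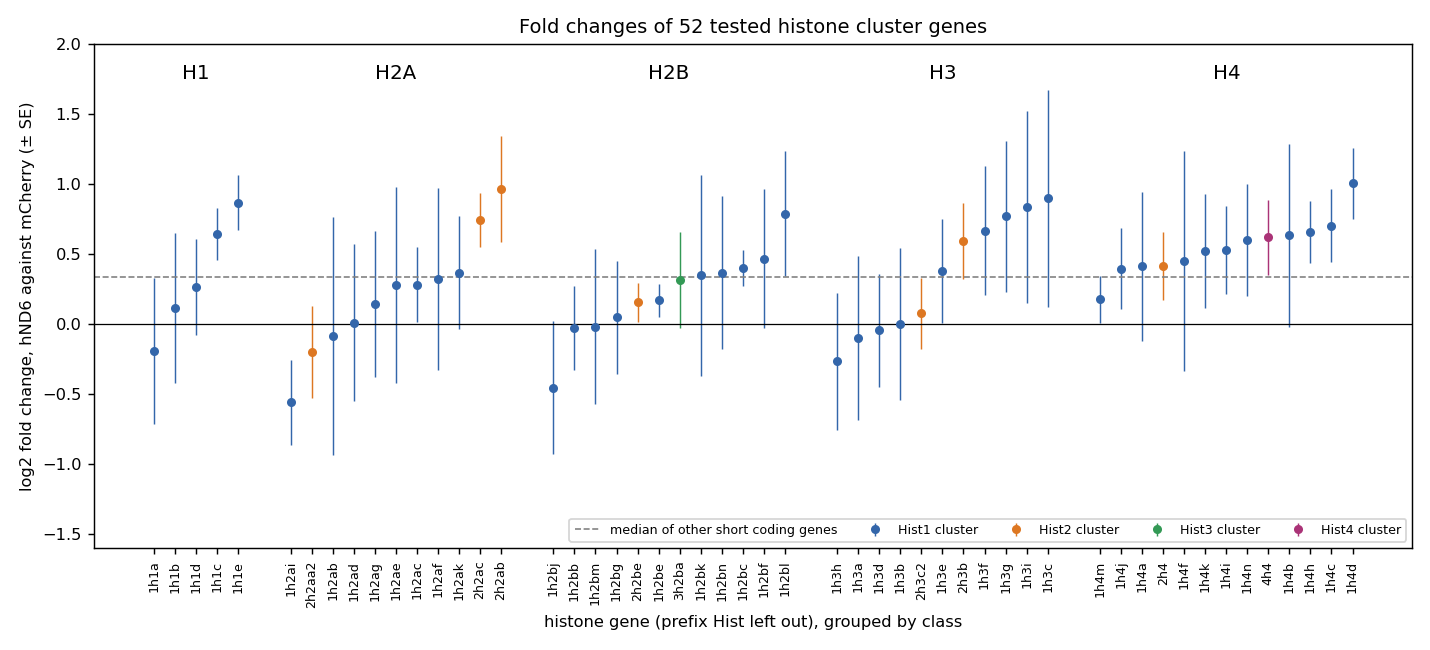
Log2 fold change of hND6 against mCherry for each of the 52 tested histone cluster genes (points, with the standard error as bars), grouped by class and coloured by cluster; the dashed line is the median of other protein-coding genes spanning under 3 kb (0.34). All 13 H4 genes lie above 0, from 0.18 to 1.01, while the other classes have members on both sides.

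All members together took 192, 193 and 348 RPM (reads scaled to a common library size) in mCherry 1 to 3 and 322, 336 and 388 in hND6 1 to 3, so mCherry 3 lay among the hND6 libraries. Of the 52 tested members, 49 had their highest mCherry value in mCherry 3, against 34.4% of all tested genes, and 29 had their highest value of all 6 libraries there. mCherry 1 held the lowest of the 6 values in 32. Against the mean of mCherry 1 and 2, mCherry 3 stood higher in 51 of 52 members, with a median log2 difference of 1.09, against 0.22 in the other short genes and -0.03 in all tested genes. Within hND6, library 3 was highest in 39 of 52 members.

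mCherry 3 differed from its group in other ways too. The 5 forebrain neuron markers summed to 133 FPKM in mCherry 3 and 32.3 in hND6 1, and to between 1.63 and 6.80 in the other 4 libraries. None of the 5 is at 0 throughout, and the excitatory neuron transporter gene Slc17a7 alone gave 113 FPKM in mCherry 3. The oligodendrocyte marker sum was lowest there, at 4478 FPKM. In hND6 2 the 5 photoreceptor markers summed to 175 FPKM, against at most 6.0 in any other library. The 4 red cell markers ran from 169 to 438 FPKM in mCherry and from 1284 to 2457 in hND6. The 5 plasma and B cell markers ran from 0.676 to 1.86 FPKM in mCherry and from 17.1 to 45.0 in hND6. The 4 microglia markers all stood higher in hND6 (median log2 fold change 0.50; sums of 143 to 218 FPKM in mCherry and 211 to 251.1 in hND6), 3 of them without overlap, and none passed the test. Among the other glial and meningeal markers, Cnp, Sox10, Gfap and Dcn were also higher without overlap. They were 1 of 6 oligodendrocyte, 1 of 4 precursor, 1 of 4 astrocyte and 1 of 3 meningeal markers. In the same lists Mobp, Cspg4 and Slc1a3 stood lower, and of 3 endothelial markers 2 did. Over all tested genes 12.6% were higher without overlap. The part of these cell types in the histone values was not tested, and in bulk tissue more cells of a type and more RNA per cell cannot be told apart.

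Without mCherry 3, 5 of the 52 members passed the threshold in limma (9.62%), all higher in hND6: Hist1h1c, Hist1h1e, Hist1h3f, Hist1h4c and Hist1h4d. Their adjusted p ran from 0.0448 to 0.0453. Hist1h3f, an H3 gene named like Hist1h4c after its values were seen, stood at 1.07 and 1.24 FPKM in mCherry 1 and 2, at 4.81 in mCherry 3, and at 3.36, 3.25 and 3.53 in hND6; the left-out library was its highest. That fit called 131 genes (0.811% of all tested, and 6.75% of the other short genes). The members' median log2 fold change was then 0.75, with 48 of 52 higher, while that of the other short genes was 0.43. Other libraries moved this median too. It was 0.08 without mCherry 1 (31 of 52 higher), 0.19 without mCherry 2 (39 higher) and 0.22 without hND6 3 (36 higher), and in none of these was a member called.

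H1 genes encode the proteins that bind linker DNA and help fold the chromatin fibre. Their summed FPKM was 34.9, 31.9 and 58.4 in mCherry 1 to 3 and 57.4, 65.2 and 67.2 in hND6 1 to 3, so mCherry 3 alone reached the hND6 range. Hist1h1c (ENSMUSG00000036181, chr13:23738808-23740367, plus strand) stood at 25, 20.7 and 34.7 FPKM in mCherry 1 to 3 and at 38.7, 42.9 and 42.1 in hND6. All hND6 values lay above all mCherry values, with mCherry 3 nearest to them. The means were 26.8 ± 7.20 and 41.2 ± 2.24 FPKM (SD, n = 3 each), and the log2 fold change was 0.64 ± 0.18 (SE) with a limma adjusted p of 0.225.

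Hist1h1e (ENSMUSG00000051627, chr13:23620629-23622558, minus strand) had the smallest p of all members. It stood at 7.63, 7.88 and 12.2 FPKM in mCherry and at 14.7, 18.3 and 17.9 in hND6, again without overlap. The means were 9.25 ± 2.59 and 17.0 ± 1.96 FPKM (SD, n = 3 each), and the log2 fold change was 0.87 ± 0.20 (SE) with a limma adjusted p of 0.178. Its gene overlaps the annotated span of Hist1h2be on the same strand, so reads in the overlap could belong to either.

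The other H1 genes did not separate the groups. Hist1h1b, a linker histone of dividing cells, stood at 1.06, 1.46 and 4.76 FPKM in mCherry and at 1.45, 1.77 and 4.10 in hND6. The groups overlapped fully, and the third library was the highest in each (log2 fold change 0.11 ± 0.54, limma adjusted p = 0.937). The testis form Hist1h1t had 1 read in mCherry and 5 in hND6 and was not tested. Of 5 tested H1 genes 4 stood higher, with a median log2 fold change of 0.26; with the gene span trend removed 3 did (median 0.17). The median was 0.07 without mCherry 1, 0.15 without mCherry 2, 0.09 without hND6 3 and 0.64 without mCherry 3.

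H4 was the class with the highest summed level, and all 13 of its tested members stood higher in hND6. Its summed FPKM was 69.6, 86.2 and 165 in mCherry and 147, 161 and 181 in hND6, so only mCherry 3 entered the hND6 range. The median log2 fold change was 0.53, and all 13 stood higher on the TPM scale and after median-of-ratios or quantile scaling; 12 of 13 did after removal of the gene span trend of each library (median 0.20), and 10 of 13 without mCherry 1 (median 0.29). Without mCherry 2, 12 of 13 stood higher (median 0.42), and without mCherry 3 the median was 0.94. Of the other short genes 86.1% stood higher in hND6. Hist1h4d (ENSMUSG00000061482, chr13:23581598-23582735, plus strand), the most abundant member of all, stood at 18.2, 22.4 and 37.5 FPKM in mCherry and at 47.8, 49.6 and 53.7 in hND6. The groups did not overlap, and mCherry 3 was again the nearest. The means were 26.0 ± 10.2 and 50.4 ± 3.0 FPKM (SD, n = 3 each), and the log2 fold change was 1.01 ± 0.25 (SE) with a limma adjusted p of 0.199. The reads behind it were 2569 in mCherry and 4285 in hND6.

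Hist1h4h stood at 19.1, 19.3 and 31.9 FPKM in mCherry and at 30.9, 38.4 and 39.8 in hND6. Only mCherry 3 and hND6 1 crossed (log2 fold change 0.66 ± 0.22, limma adjusted p = 0.264). Hist1h4k, whose table entry covers the coding part alone, stood at 8.98, 17.1 and 30.5 FPKM against 20.7, 25.6 and 27.2. Here mCherry 3 was the highest of all 6 libraries (0.52 ± 0.41, adjusted p = 0.589). Hist4h4 (chr6:136801553-136804415, minus strand), the lone gene of its cluster, stood at 0.449, 0.843 and 1.30 FPKM in mCherry and 1.60, 1.41 and 1.57 in hND6. Its groups did not overlap, though mCherry 3 lay close under hND6 2 (log2 fold change 0.62 ± 0.27, limma adjusted p = 0.345).

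H2A genes were low and scattered. Their summed FPKM was 15.1, 16.4 and 40.4 in mCherry and 26.8, 23.1 and 39.5 in hND6, and the highest of the 6 was mCherry 3. Of 11 tested, 8 stood higher and 3 lower, with a median log2 fold change of 0.28, which turned to -0.05 with the gene span trend removed and to -0.32 without mCherry 1. It was 0.13 without mCherry 2, 0.04 without hND6 3 and 0.61 without mCherry 3. Hist2h2ac (ENSMUSG00000068855, chr3:96220361-96220880, minus strand), a replication-type H2A gene of the Hist2 cluster, stood apart from this pattern. It stood at 7.35, 4.81 and 7.70 FPKM in mCherry and at 10.95, 10.1 and 12.7 in hND6. The groups did not overlap, and mCherry 3 was close to mCherry 1. The means were 6.62 ± 1.57 and 11.3 ± 1.32 FPKM (SD, n = 3 each), and the log2 fold change was 0.74 ± 0.19 (SE) with a limma adjusted p of 0.199.

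The other leading H2A genes were highest in the libraries numbered 3 of both groups. Hist1h2ak stood at 3.77, 3.22 and 9.30 FPKM in mCherry and at 5.50, 5.27 and 9.17 in hND6. The third library of each group was the highest, and the groups overlapped (log2 fold change 0.37 ± 0.40, limma adjusted p = 0.707). Hist1h2ab ran from 0.418 FPKM in mCherry 1 to 6.66 in mCherry 3, with hND6 at 1.91, 0.748 and 5.05, and its log2 fold change of -0.09 ± 0.85 had the opposite sign without mCherry 3 (0.61).

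H2B, the partner of H2A in the core, held both steady and variable genes and summed to 54.4, 52.7 and 91.5 FPKM in mCherry and to 67.8, 71.1 and 93.4 in hND6. Hist1h2bc, which spans 8710 bases with an intron, stood at 21.7, 21.8 and 25.9 FPKM in mCherry and at 26.6, 30.3 and 35.3 in hND6. The groups did not overlap, but hND6 1 lay barely above mCherry 3. The means were 23.1 ± 2.38 and 30.7 ± 4.396 FPKM (SD, n = 3 each), and the log2 fold change was 0.40 ± 0.13 (SE) with a limma adjusted p of 0.256.

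Hist1h2be and Hist2h2be, both longer transcripts, varied little. Hist1h2be stood at 6.98, 6.79 and 6.89 FPKM in mCherry and 6.67, 8.13 and 8.74 in hND6 (log2 fold change 0.17 ± 0.12, limma adjusted p = 0.545). Hist2h2be stood at 4.70, 4.72 and 3.86 FPKM against 4.403, 4.86 and 5.72 (0.16 ± 0.14, adjusted p = 0.642), and was at -0.038 with the gene span trend removed. Neither was high in mCherry 3. Hist1h2bg, in contrast, stood at 6.13, 4.64 and 12.6 FPKM in mCherry and 6.29, 5.64 and 11.4 in hND6, high in mCherry 3 and hND6 3 (0.05 ± 0.40, limma adjusted p = 0.965). Hist3h2ba, the tested member of the Hist3 cluster, stood at 2.58, 3.39 and 7.35 FPKM against 5.95, 4.69 and 4.88 (0.31 ± 0.34, limma adjusted p = 0.707), with -0.011 after removal of the gene span trend and 0.03 without mCherry 1. Of 12 tested H2B genes 9 stood higher, with a median log2 fold change of 0.24; with the gene span trend removed 6 did (median 0.00087). The median was 0.04 without mCherry 1, 0.08 without hND6 3 and 0.48 without mCherry 3.

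**Figure D2:**
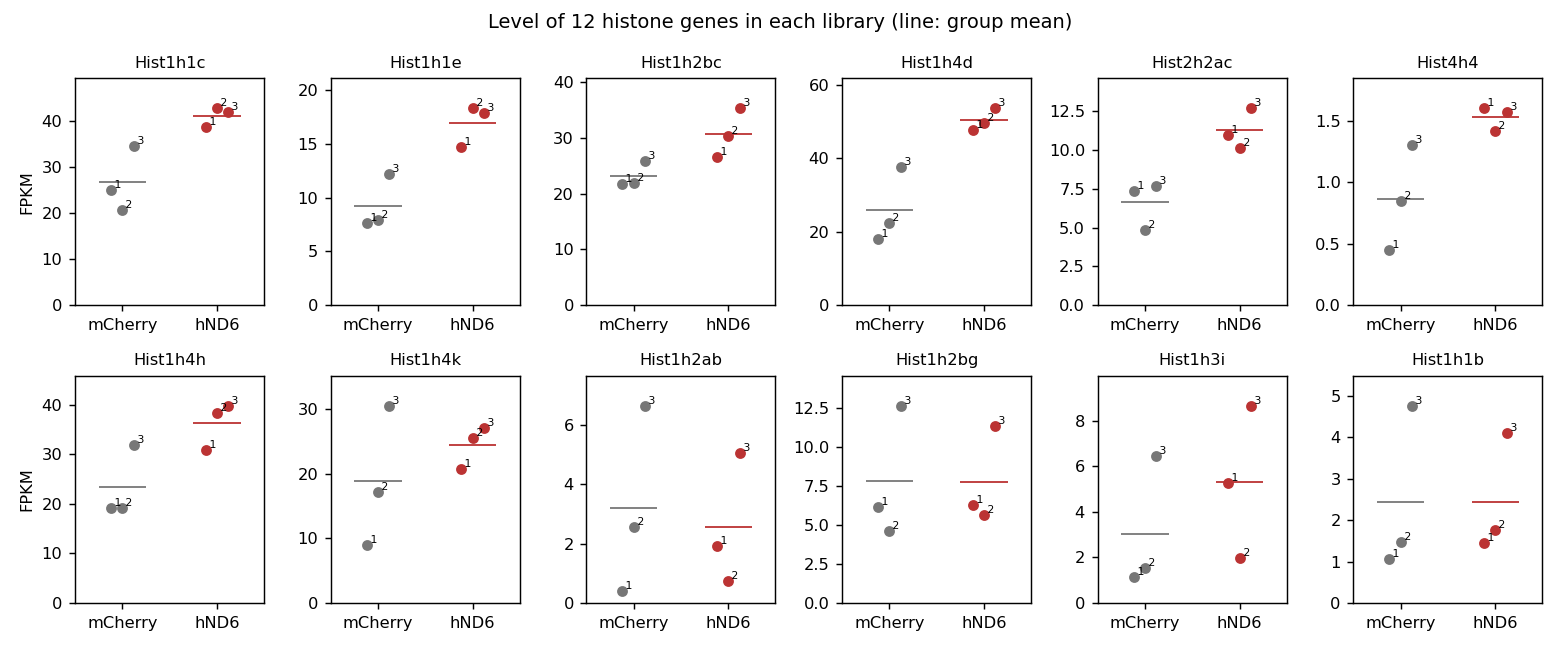
FPKM of 12 histone cluster genes in each library (points, numbered by replicate) with the group mean as a line; each panel has its own axis from 0. The upper row holds the 6 members whose groups did not overlap, and in the lower row mCherry 3 reaches or passes hND6 values, as in Hist1h4k, where it was 30.5 FPKM.

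None of the 11 tested H3 genes had groups that did not overlap, against 12.6% of all tested genes higher and 10.2% lower. The class summed to 15.1, 19.3 and 47.1 FPKM in mCherry and 29.8, 25.4 and 46.6 in hND6, with mCherry 3 highest. Of 11 tested 8 stood higher, with a median log2 fold change of 0.38; 6 did on the TPM scale (median 0.26), and 6 after removal of the gene span trend (0.05). The median was 0.05 without mCherry 1, 0.19 without hND6 3 and 0.75 without mCherry 3. Hist1h3e stood at 3.27, 5.05 and 9.49 FPKM in mCherry and 5.76, 6.77 and 9.57 in hND6 (0.38 ± 0.37, limma adjusted p = 0.669). Hist1h3i stood at 1.12, 1.54 and 6.43 FPKM against 5.26, 1.97 and 8.66, with hND6 2 nearer to mCherry 1 and 2 than to the other hND6 libraries (0.83 ± 0.68, limma adjusted p = 0.606). Hist2h3b stood at 2.30, 3.40 and 4.78 FPKM against 5.87, 4.04 and 6.33 (0.59 ± 0.27, limma adjusted p = 0.366).

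By cluster, the 43 tested Hist1 genes had a median log2 fold change of 0.37 and the 7 tested Hist2 genes one of 0.41. The Hist1 sum was 167, 183 and 369 FPKM in mCherry and 290, 313 and 387 in hND6, with mCherry 3 second highest of all. The Hist2 sum was 19.1, 19.0 and 25.4 FPKM in mCherry and 31.3, 26.6 and 34.6 in hND6. The Hist2 sums did not overlap between the groups, whereas the Hist1 sums did. Of the 7 tested Hist2 genes, 1, Hist2h2ac, had groups that did not overlap, and of the 43 tested Hist1 genes 4 did. All were higher in hND6, against 12.6% of all tested genes. Hist2h2ac, at 4.81 to 7.70 FPKM in mCherry and 10.1 to 12.7 in hND6, is part of the Hist2 sum. The Hist2 sums of H2B, H3 and H4 each overlapped between the groups. For H3, mCherry 3 stood at 6.11 FPKM and hND6 2 at 5.03. For H4, mCherry 3 stood at 5.73 and hND6 3 at 5.20. The separation of the whole Hist2 sum is therefore not read as a trait of the cluster.

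Members also differed in how their transcript was annotated at its 3′ end, a grouping chosen after their values were seen. In 22 members the annotated transcript ended within 100 bases after the stem-loop, and in 23 it ran further past it. In 22 it held no stem-loop. Some of these last entries were shorter than the RefSeq gene, as in Hist1h2ak (393 against 536 bases) and Hist1h4k (312 against 409). There a stem-loop past the annotated end would not be seen, so its absence is not shown. Hist1h4d ran 770 bases past its stem-loop, Hist1h1c 840 and Hist1h1e 1153. The 19 tested genes that ran past had a median log2 fold change of 0.40, 18 of them higher and 4 with groups that did not overlap. The 19 tested genes that ended near the stem-loop had a median of 0.18, 13 of them higher and 1 without overlap. The kinds also differed in level, with a median of mean FPKM of 2.88 in the 23 members and 1.49 in the 22. The median share of 50-base stretches that also occur in another gene was 19.6% and 59.9%. Over all tested genes 12.6%, and over the other short genes 37.3%, were higher without overlap, and the difference between these kinds was not tested. In the 14 without an annotated stem-loop the median was 0.37, with 11 higher. The excess of mCherry 3 over mCherry 1 and 2 was 0.88 (median log2 difference) in genes that ran past and 1.28 in those that ended near, so it was present in both. An FPKM divides by the annotated length, so a transcript that ends earlier than annotated has a lower FPKM.

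**Figure D3:**
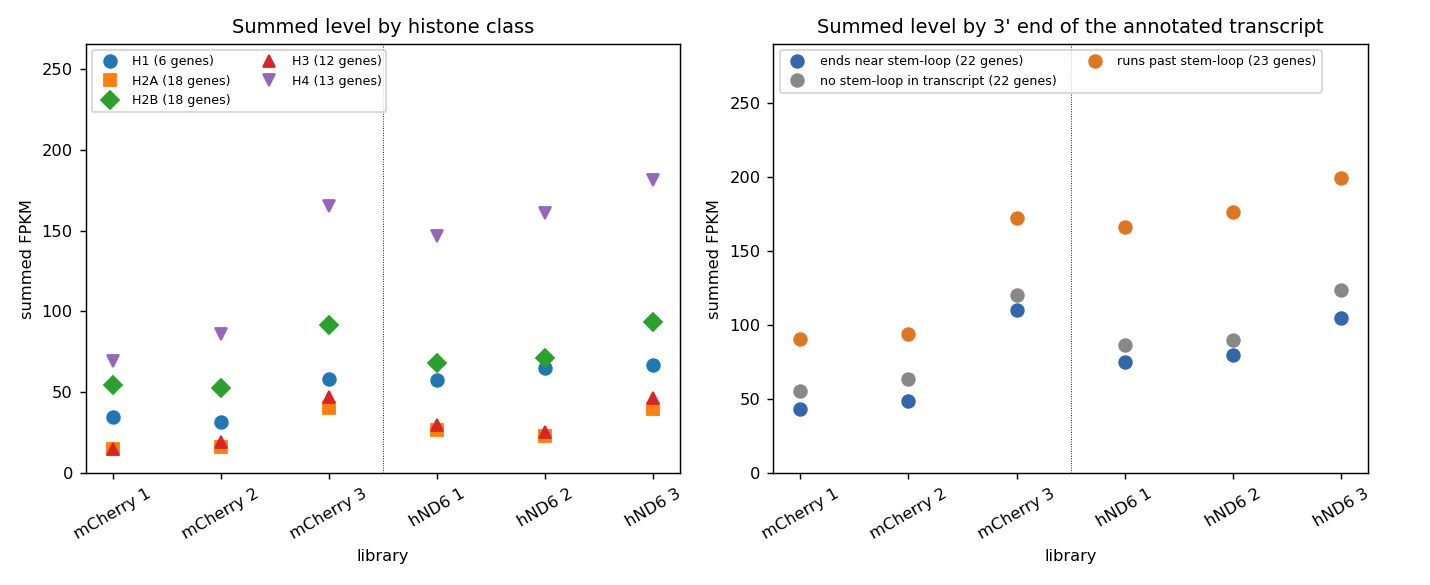
Summed FPKM in each of the 6 libraries (points), by histone class on the left and by the 3′ end of the annotated transcript on the right; the dotted line separates the groups. In every class and every kind mCherry 3 lies above mCherry 1 and 2, as in H4, where it reached 165 FPKM against 69.6 and 86.2.

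Near-identical copies limit what can be read from single members. In 30 members at least 50% of all 50-base stretches also occur in another gene, and none of the 23 tested among them had groups that did not overlap. Of the 37 with a lower share 29 were tested, and the 6 genes named above are all among them. Over all tested genes 12.6%, and over the other short genes 37.3%, were higher without overlap. The median of mean FPKM was 1.30 in the 30 members and 2.43 in the 37, and the difference between them was not tested. The 4 genes Hist1h1c, Hist1h4d, Hist1h2bc and Hist1h1e, whose shares are 8.54%, 10.2%, 30.6% and 8.24%, gave 24238 of the 47845 reads assigned to members (50.7%).

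A total of 10 members were listed at 0 in all 6 libraries, which is not read as absence of the RNA. Hist1h2ao, Hist1h2ap, Hist1h2bq and Hist1h2br share 93.1% to 100% of their 50-base stretches with another gene. Hist2h2aa1, Hist2h3c1, Hist2h2bb and Hist3h2a overlap another gene on the same strand. The sources used here do not give how reads that fit several genes were counted. Hist1h2aa and Hist1h2ba, known from testis, overlap no gene on their strand and share 2.35% and 38.2% of these stretches with others; 3 reads in a library, the limit that a count of 0 allows, equal 0.0863 to 0.148 RPM here. These zero-listed genes other than Hist1h2aa, Hist1h2ba and Hist3h2a were named after their values were seen.

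**Figure D4:**
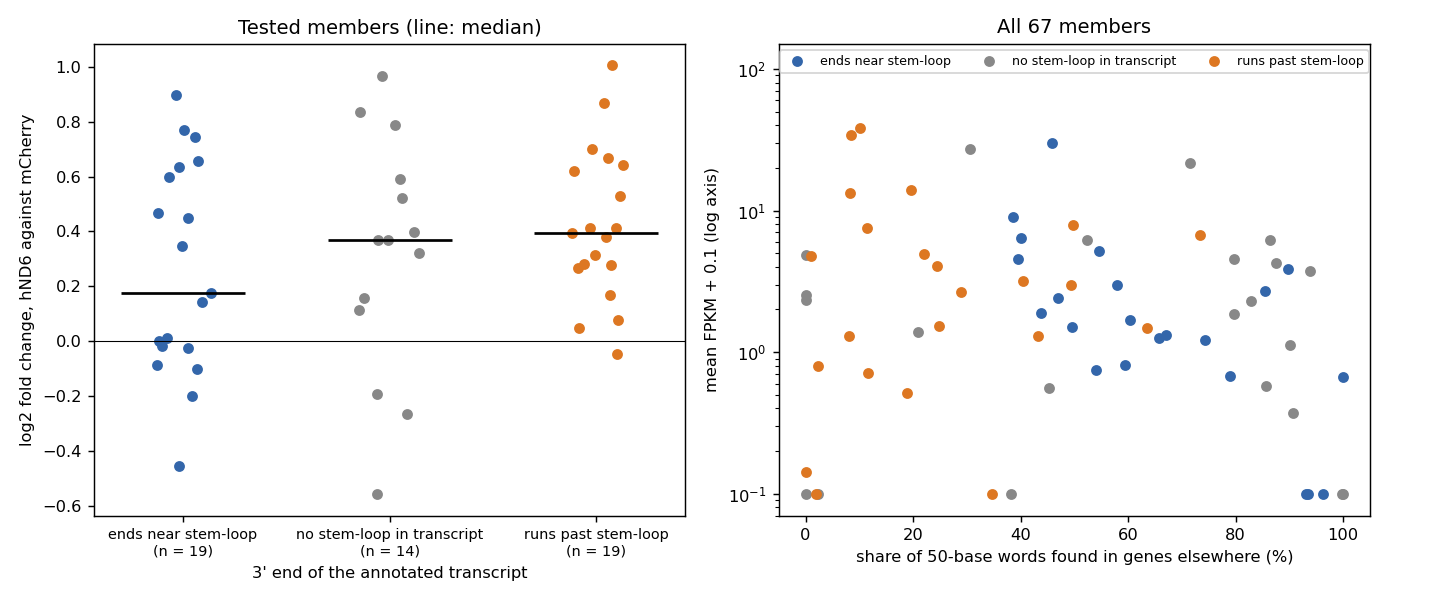
Left, log2 fold change of each tested member by the 3′ end of its annotated transcript, with the median as a line. Right, mean FPKM of each of the 67 members (plus 0.1, on a log axis) against the share of its 50-base words found in other genes; points at the bottom are the members at or near 0, and the 4 most-read genes lie at shares of 30.6% or less.

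Genes around the histone clusters were read from lists, and none of their members passed the test in limma. The list of 11 replication-independent histones holds genes mostly expressed outside DNA replication, most with poly(A) tails. Of these 11, 8 stood higher under each scaling, with a median log2 fold change of 0.30 (0.14 with the gene span trend removed). In 5 the groups did not overlap, against 12.6% of all tested genes and 37.3% of the other short genes. H3f3b, which encodes the variant H3.3, stood at 56.1, 50.7 and 59.9 FPKM in mCherry and 72.7, 86.9 and 77.2 in hND6 (log2 fold change 0.50 ± 0.10, limma adjusted p = 0.163). Here mCherry 3 was close to its own group. H2afy, which encodes macroH2A, stood at 57.1, 62.9 and 49.9 FPKM against 49.3, 50.6 and 52.9, with overlapping groups (-0.15 ± 0.10, limma adjusted p = 0.535). The mCherry 3 excess over mCherry 1 and 2 in these 11 genes had a median of 0.17, against 1.09 in the histone cluster genes. It was above 0 in 7 of the 11, H1fx and H2afx among them.

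Genes that transcribe and cut histone RNA lay close to 0. Of 11 tested genes 2 stood higher and 9 lower, with a median log2 fold change of -0.07 and none without overlap; with the gene span trend removed 5 stood higher. Its most abundant members were Sympk, a scaffold of the cutting complex (30.1 ± 1.81 FPKM in mCherry and 31.3 ± 1.20 in hND6, limma adjusted p = 0.772), and Srrt, which links the cap to this processing (26.9 ± 2.76 and 24.1 ± 1.25, adjusted p = 0.507; SD, n = 3 each). Of 10 tested histone chaperones, which carry histones to DNA, 8 stood higher, with a median of 0.08, but 4 did on the TPM scale (median -0.05). Without overlap, 2 of the 10 were higher, Npm1 and Asf1a, and 1 was lower, Atrx. Over all tested genes 12.6% were higher and 10.2% lower without overlap. Npm1 stood at 54.0, 44.1 and 48.1 FPKM against 56.7, 61.0 and 60.1 (0.28 ± 0.09, limma adjusted p = 0.263). Nap1l4 stood at 43.8 ± 5.17 against 46.9 ± 2.41 FPKM (adjusted p = 0.679).

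Of 30 genes of DNA replication and division, 19 were tested and 13 stood higher, with a median of 0.11; on the TPM scale 10 did. Pcna, the sliding clamp of the replication fork, stood at 15.8, 17.0 and 17.2 FPKM in mCherry and 21.9, 22.8 and 26.9 in hND6 (log2 fold change 0.50 ± 0.10, limma adjusted p = 0.158). Mcm4, a subunit of the replicative helicase, stood at 5.21, 4.96 and 4.25 FPKM against 6.21, 7.001 and 7.11 (0.46 ± 0.12, adjusted p = 0.199). Neither was raised in mCherry 3, and the groups of both did not overlap. With Mcm2, 3 of the 19 were higher without overlap and 0 lower, against 12.6% and 10.2% of all tested genes. Some low genes of the list did have mCherry 3 as their highest library. Chosen after their values were seen, Ccne1, the cyclin of S phase entry, stood at 0.198, 0.317 and 2.51 FPKM in mCherry and 0.847, 0.228 and 0.843 in hND6, and Top2a, a topoisomerase of dividing cells, at 0.612, 1.13 and 1.80 against 0.766, 0.407 and 1.37. Over the 19 tested genes the mCherry 3 excess had a median of 0.28.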

How the data were processed

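The deposited values are FPKM per gene, made by the authors; per the submitters' processing notes, CASAVA 1.4, Trim Galore, STAR and HTSeq were used with mm10 and GRCm38, without a role for each. Per the labels, RNA came from a Qiagen RNeasy kit and went into TruSeq Stranded Total RNA libraries. The 6 single-library tables held the values of the combined table. FPKM times exon length came to whole multiples of 1 step per library (within 0.1 read), which gave the reads.

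Genes averaging at least 0.5 FPKM were tested in R 4.3.3 with limma 3.58.1 on log2(FPKM + 0.5) with an intensity trend, hND6 against mCherry, without pairing, with Benjamini-Hochberg adjustment over all tested genes and a threshold of 0.05. The fit was tested on simulated data. Fold changes on this scale understate low genes. Named genes are the 3 most abundant of each class, the 2 most abundant of each cluster and list, the 5 of smallest p without overlap, any past the threshold, and the testis genes. Members and lists were chosen with earlier results of these data known. Promoters come from RefSeq (GRCm38.p6), transcripts from GENCODE M21. Other pseudocounts, filters, scalings, models and left-out libraries were tried.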

Additional observations from a re-analysis of the deposited data

How the results depend on the processing

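No histone cluster gene was called under any setting run except without mCherry 3, which called 5; leaving out each library in turn gave 0 to 5 called members, and 0 to 131 called genes. Genes called in all were 1 with no filter on low values, 0 with voom, 0 with mCherry 3 and hND6 2 both left out, and 0 with the replicate block. The labels do not say what a shared replicate number means. Deviations of same-numbered libraries correlated across all tested genes at -0.42, 0.36 and -0.20, which cannot decide whether they are paired. The members' median log2 fold change stayed above 0 in all settings run, from 0.08 (gene span trend removed, and without mCherry 1) to 0.82 (both libraries left out). The TPM scale moved the median of all genes to -0.15 and that of the members to 0.29.

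Some single genes changed sign. On the TPM scale Hist1h2bg was at -0.090, Nap1l4 at -0.042 and Sympk at -0.090. With the gene span trend removed Hist1h1b was at -0.21, Hist1h2bg at -0.28, Hist2h2be at -0.038 and Hist3h2ba at -0.011. Hist1h2ab was at 0.10 with voom and at 1.13 with both libraries left out. Leaving out each library in turn gave from -0.26 (without hND6 3) to 0.64 (without mCherry 3) for Hist1h1b, from -0.24 (without hND6 3) to 0.44 (without mCherry 3) for Hist1h2bg, and from -0.87 (without mCherry 1) to 0.61 (without mCherry 3) for Hist1h2ab. The causes were not tested.

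With 3 libraries a group, differences in the lowest members could not be resolved at this depth: Hist1h2ah, for example, had 13 reads in mCherry and 5 in hND6.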
